A study of Rattus norvegicus with 34 samples.

Results

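Complement and coagulation genes were followed in a rat study of monuron, a phenylurea herbicide, measured on Affymetrix expression arrays. The set held 53 genes listed by symbol, out of 14217 genes with a probe set of their own in the whole series. A probe set of their own was found for 47 of the 53, and Cd59 was taken from the annotation as Cd59b. C2 and Cfb shared their probe sets with each other, and the probe set of Kng1 was shared with other kininogen genes, so no value is given for these 3. F7, F11 and F13b had no probe set under these symbols, and their expression was not analysed here.

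The series comprised 34 arrays in 10 groups. NRK-52E, an established epithelial line from kidney with the label of proximal tubule cells and an Osborne-Mendel background, was exposed to monuron or to its solvent, DMSO at 0.1%, and RNA was taken after 6, 24 or 72 h (3 arrays per compound and time). Male Wistar-derived rats of 7 to 9 weeks and 190 to 240 g received monuron in corn oil (5 ml/kg), 40 mg/kg on the first day and 400 mg/kg afterwards, or corn oil alone. Kidney and liver were each measured in 4 monuron and 4 control samples, and whether the organs came from the same rats is not given in the sources used here. The protocol text for the cells names chlorothalonil at the place where the sample labels name monuron, and the labels are followed here. For the rats the series title speaks of an exposure of 72 h, whereas the protocol places the end of the experiment 72 h after the last dose.

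Complement is a cascade of plasma proteins that marks and perforates targets. It is started by the C1 complex, by mannose-binding lectins with their proteases or by the alternative pathway, and C3 and the terminal components C5 to C9 follow. Coagulation runs from tissue factor and the contact factors through prothrombin to fibrin, is held back by the protein C system, antithrombin and tissue factor pathway inhibitor, and is undone by plasmin. Most of these proteins are made by hepatocytes, whereas a few, such as tissue factor, urokinase, thrombomodulin and the membrane inhibitors of complement, are made by epithelial or endothelial cells themselves.

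All levels are log2 expression values, and 1 unit is a doubling. A gene was tested in a sample type if the number of arrays on which its probe set exceeded the array's median was no lower than the size of the smallest group, and "called" means an adjusted p below 0.05 in limma, adjusted over all genes tested. Array medians lay between 3.89 and 3.94 in kidney, between 3.66 and 3.78 in liver and between 3.96 and 4.18 in the cells, and values below them are called background here. The organ labels were checked against marker lists. Between the control organs, all 15 tubule markers were called higher in kidney, and of 17 measured hepatocyte markers 16 were called higher in liver and 1 lower. The filter alone does not separate the organs: all 15 tubule markers passed it in kidney and 6 in liver. All 17 hepatocyte markers passed it in liver and 10 in kidney. In NRK-52E none of the 15 tubule markers passed the filter. The list covers several tubule segments, with Umod and Aqp2 outside the proximal tubule. The label of proximal tubule cells was not matched by the proximal markers in it, such as Lrp2 and Cubn. Within each group of arrays, pairwise correlations over all probe sets ran from 0.987 to 0.999 in the cells, from 0.993 to 0.996 in kidney and from 0.992 to 0.996 in liver. In the cells, DMSO array 3 at 72 h stood apart from its group for several members, and in kidney, monuron array 3 was highest for several transcripts of hepatocytes. The results that rest on these arrays are given with and without them. In bulk samples, fewer cells of a type and less RNA per cell cannot be told apart.

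The promoters of 39 members were found in RefSeq (assembly GRCr8), and the 250 bases before the start of each transcript were searched on both strands. The motifs, and the 4 promoters printed here, were chosen after both the expression values and the motif matches had been seen, so the shares of promoters with a match are a description only. The 4 belong to members that were higher in monuron kidney, were picked because they hold a match, and show where short matches to sites of liver-enriched or cytokine-activated factors lie. Apoh starts after chr10:93841742-93841991 on the plus strand, Pzp after chr4:163491336-163491585 on the minus strand, F2 after chr3:98065247-98065496 on the minus strand and C5 after chr3:38759469-38759718 on the minus strand. Capitals mark GTTAAT (part of the HNF1 site), TGTTTAC (FOXA) or TTCNNNGAA (STAT), or their complements, each sequence being written 5′ to 3′ on the strand of the gene.
Apoh: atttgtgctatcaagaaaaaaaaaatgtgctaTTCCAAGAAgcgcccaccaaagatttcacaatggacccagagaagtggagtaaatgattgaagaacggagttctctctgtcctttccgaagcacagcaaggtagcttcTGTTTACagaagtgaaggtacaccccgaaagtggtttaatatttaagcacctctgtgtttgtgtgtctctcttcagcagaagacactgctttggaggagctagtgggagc
Pzp: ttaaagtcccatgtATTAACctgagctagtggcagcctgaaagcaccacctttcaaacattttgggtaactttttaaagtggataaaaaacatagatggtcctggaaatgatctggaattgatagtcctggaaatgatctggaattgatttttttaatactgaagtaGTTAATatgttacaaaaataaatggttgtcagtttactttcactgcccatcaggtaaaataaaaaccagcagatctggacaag
F2: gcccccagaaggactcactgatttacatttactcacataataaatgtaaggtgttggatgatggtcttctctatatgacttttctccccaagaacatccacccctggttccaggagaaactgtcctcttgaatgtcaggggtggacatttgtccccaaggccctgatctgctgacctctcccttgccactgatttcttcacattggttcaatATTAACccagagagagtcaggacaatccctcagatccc
C5: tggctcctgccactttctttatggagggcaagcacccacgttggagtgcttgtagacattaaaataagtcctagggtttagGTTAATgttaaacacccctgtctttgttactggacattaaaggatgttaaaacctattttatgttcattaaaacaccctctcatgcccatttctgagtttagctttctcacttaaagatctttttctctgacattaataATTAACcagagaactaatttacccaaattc
GTTAAT was found in 12 of 39 member promoters (30.8%) and in 6.45% of all 33469 windows of that length. It stood in 4 of the 9 promoters of members higher in monuron kidney, namely C5, F2, Proc and Pzp, while those of Cfi, Mbl1 and Serpinf2 held no match to any of the 9 motifs, the promoter of Serping1 not being among the sequences. TGTTTAC was found in 6 of 39 (3.21% of all windows), TTCNNNGAA in 8 (7.67%), TTGCNNCAA for C/EBP in 3 (1.75%) and TATAAA in 1 (12.93%). CAAAGTCCA (part of the HNF4 site; 0.34% of all windows), AGGTCANAGGTCA (nuclear receptors; 0.05%), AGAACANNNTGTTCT (glucocorticoid receptor; 0.01%) and CATGNNNNNNCATG (p53; 0.36%) were found in 0 of the 39. A member counted once if any of its windows held a match, whereas the share of all windows counts each window, so these shares differ in unit. The windows of all genes are not matched to the members in tissue or base composition, and no match overlapped a match to another of the 9 motifs in the 39 promoters.

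The levels in the control organs set the scale for the treatment differences. Of 46 members tested in the joint fit of both organs, 38 were higher in control liver and 7 were higher in control kidney. The median difference was 5.67 (all genes, -0.16), and 31.9% and 44.8% of all genes were called in those directions. The joint fit also admitted members that passed the filter in liver alone, such as Mbl2, C6, C8a, F9 and Fgg, and Cd55, which passed in kidney alone. For these the filter largely set the direction, and the size rests on values mostly at background in the other organ. The counts and the median include them. The organs were separate samples with separate value distributions (a mean difference of 0.148 between their quantiles), so the organ and its handling cannot be told apart. The classical pathway was measured in both: C1qa, the A chain of the C1q recognition protein, lay at 10.59 ± 0.11 (SD, n = 4) in control liver and 7.11 ± 0.11 in control kidney, and the proteases C1r and C1s were higher in liver by 4.26 and 3.16. C9 and plasminogen were below the array median on every kidney array: C9, the pore-forming subunit of complement, lay at 14.61 ± 0.06 in control liver and 2.33 ± 0.05 in control kidney, and plasminogen (Plg), the zymogen of plasmin, at 14.99 ± 0.13 and 2.15 ± 0.20. With dim values raised to the array median these differences were 10.69 and 11.08, and the unlimited ones of 12.28 and 12.84 rest on background values.

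The 7 members higher in control kidney were Plau, F3, Cd55, Plat, Thbd, Cd59 and Tfpi. Urokinase (Plau), which activates plasminogen and is excreted in urine, lay at 13.64 ± 0.07 in control kidney and 5.46 ± 1.02 in control liver, a difference of -8.17 (SE 0.46, adjusted p = 4.75e-11). Tissue factor (F3), the starter of coagulation, differed by -5.47, the complement decay accelerator Cd55 by -4.23, tissue plasminogen activator (Plat) by -3.69, thrombomodulin (Thbd) by -2.22, the pore inhibitor Cd59 by -1.69 and the tissue factor inhibitor Tfpi by -0.70. With the mean of all probe sets of a gene, Tfpi was not called (-0.14, adjusted p = 0.0712), Thbd differed by -0.90 and Cd55 by -2.78. The second Tfpi probe set lay higher in control liver (6.61) than in control kidney (6.20). Masp2, a protease of the lectin pathway, was the 1 member not called (-0.12, adjusted p = 0.552), and its probe sets disagreed. The probe set used lay at 7.29 in control liver and 7.41 in control kidney, whereas a second lay at 12.36 and 2.12, and leaving out any kidney array moved the choice to the second, with differences from 10.24 to 10.25. The level of Masp2 across organs therefore depends on the probe set.

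**Figure D1:**
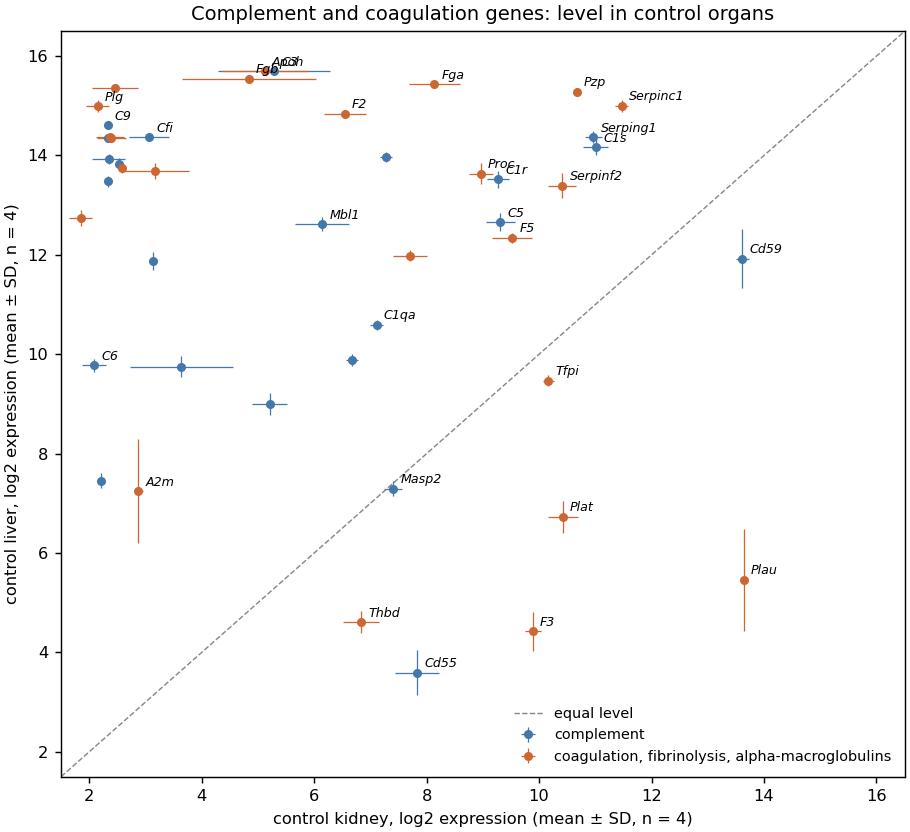
Mean log2 expression ± SD of each tested member in control kidney (horizontal axis) and control liver (vertical axis), 4 arrays per organ, with complement genes in blue, coagulation, fibrinolysis and alpha-macroglobulin genes in orange and a dashed line of equal level. Most members lie above the line, with Fgg, Plg and C9 near background in kidney, and 8 members led by Plau lie below it. Among these 8 is Masp2, which lies just below the line and was not called.

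In kidney, 10 complement and coagulation genes rose with monuron and 0 were called lower by limma, where 3 had a lower level at an unadjusted p below 0.05. They were 4 complement genes (Mbl1, C5, Cfi and Serping1), prothrombin (F2), the anticoagulant group of Apoh, Proc and Pros1, the plasmin inhibitor Serpinf2 and the alpha-macroglobulin Pzp, with increases from 1.40-fold to 4.62-fold. They stood among 29 members tested, in a kidney where 3.87% of all 9542 genes were called higher and 10.2% were called in either direction. The median difference of the 29 members was 0.10, and that of all genes was -0.08. The values of the control and monuron arrays did not overlap for 13 of the 29. The share of all genes without overlap was not computed, so nothing is read from that count. Of the 10, 9 passed the filter with both groups above the array median, and Cfi passed through its monuron arrays alone.

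Apoh, beta-2-glycoprotein I, a plasma protein that binds anionic phospholipid, had the largest difference among the tested members. Its values were 5.66, 5.88, 4.62 and 4.34 on the control kidney arrays and 6.89, 7.37, 7.55 and 7.51 on the monuron arrays. The groups did not overlap, and the difference was 2.21 (SE 0.34, 4.62-fold, adjusted p = 0.0059). Protein C (Proc), the zymogen of the protease that inactivates factors V and VIII, read 9.24, 9.00, 8.72 and 8.91 in control kidney and 9.55, 9.71, 9.87 and 9.77 in monuron kidney. Its cofactor protein S (Pros1) read 7.91, 7.96, 7.64 and 7.30 against 8.30, 8.27, 8.50 and 8.30. Both rose in all 4 monuron arrays beyond every control array, Proc by 0.76 (SE 0.12, adjusted p = 0.0059) and Pros1 by 0.65 (SE 0.15, adjusted p = 0.025). The other tested anticoagulants were not called: antithrombin (Serpinc1) differed by 0.20 (adjusted p = 0.116) and thrombomodulin (Thbd), the receptor on which protein C is activated, by -0.12 (adjusted p = 0.809).

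Prothrombin (F2), the zymogen of thrombin, read 6.99, 6.23, 6.25 and 6.72 in control kidney and 7.17, 7.67, 8.22 and 7.89 in monuron kidney. The lowest monuron array lay just above the highest control array, and the difference was 1.19 (SE 0.24, 2.28-fold, adjusted p = 0.017). Factor V (F5), the cofactor in prothrombin activation, was not called (-0.22, adjusted p = 0.532). The starter of the cascade pointed the other way: tissue factor (F3) read 9.80, 9.75, 10.04 and 9.97 in control kidney and 9.63, 9.70, 9.42 and 9.32 in monuron kidney. These groups did not overlap either, and the difference of -0.37 (SE 0.10) missed the threshold with an adjusted p of 0.0519. It passed with arrays centred on their medians (adjusted p = 0.0463) and without monuron array 2 (-0.44, adjusted p = 0.0449).

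The fibrinogen chains, which are polymerised to fibrin, did not rise with prothrombin. Fga read 8.80, 7.92, 8.05 and 7.78 in control kidney and 7.40, 7.77, 7.13 and 7.53 in monuron kidney, a difference of -0.68 (SE 0.22, adjusted p = 0.0786) without overlap of the groups. Fgb, at 5.57, 5.02, 5.65 and 3.11 against 2.76, 4.03, 4.16 and 3.11, differed by -1.32 (SE 0.56, adjusted p = 0.151). Control array 4 lay among the monuron arrays for Fgb, and without it the difference was -1.90 and called (adjusted p = 0.0233). Fgg lay below the array median on 7 of 8 kidney arrays, the exception being monuron array 3 at 4.21, and was not tested.

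Of the protease inhibitors, Pzp, an alpha-macroglobulin that traps proteases, read 10.66, 10.74, 10.59 and 10.70 in control kidney and 11.45, 11.51, 11.64 and 11.78 in monuron kidney. The spread within each group was far smaller than the gap, and the difference was 0.93 (SE 0.08, 1.90-fold, adjusted p = 0.00056). Serpinf2, alpha-2-antiplasmin, the main inhibitor of plasmin, read 10.33, 10.78, 10.25 and 10.29 against 10.90, 11.13, 11.39 and 11.60, a rise of 0.84 (SE 0.16, adjusted p = 0.014). The plasminogen activators Plat (-0.05, adjusted p = 0.831) and Plau (0.06, adjusted p = 0.708) were not called, and plasminogen itself, the urokinase receptor Plaur and A2m lay at background. A second Plau probe set, at 11.04 in control and 11.43 in monuron kidney, differed by 0.39, and Plau was called in none of the alternatives.

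In complement, C5, the source of the chemoattractant C5a and the first component of the membrane attack complex, read 9.38, 9.41, 8.94 and 9.53 in control kidney and 10.16, 10.07, 10.23 and 10.28 in monuron kidney. The monuron arrays lay close together above all controls, and the rise was 0.87 (SE 0.12, 1.83-fold, adjusted p = 0.0043). C8g, a subunit of C8, read 7.19, 7.40, 7.32 and 7.20 against 7.59, 7.89, 7.61 and 7.50, a difference of 0.37 (SE 0.11, adjusted p = 0.0631) that passed after quantile normalization (0.41, adjusted p = 0.0420). C6, C8a, C8b and C9 were at background in kidney and were not tested.

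Mbl1, mannose-binding lectin A, which recognises microbial sugars and starts the lectin pathway, read 6.48, 6.63, 5.80 and 5.67 in control kidney and 7.09, 6.71, 7.32 and 7.59 in monuron kidney. Its groups were separated by a narrow gap, and the rise was 1.03 (SE 0.26, 2.04-fold, adjusted p = 0.035). Serping1, the C1 inhibitor, which blocks C1r, C1s, the lectin proteases and plasma kallikrein, read 10.76, 11.14, 10.96 and 11.01 against 11.23, 11.39, 11.48 and 11.70, a rise of 0.48 (SE 0.11, adjusted p = 0.027). Cfi, the protease that cleaves C3b and C4b, read 3.09, 3.55, 2.74 and 2.88 against 4.54, 4.12, 4.41 and 5.26, a rise of 1.52 (SE 0.27, adjusted p = 0.011). All control arrays lay below the array median for Cfi, and with values raised to that median the difference was 0.67 and no longer called (adjusted p = 0.0819).

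The components that start the classical pathway did not pass the test in kidney: differences of C1qa, C1qb, C1qc, C1r and C1s ran from -0.47 (C1qb, adjusted p = 0.178) to 0.10 (C1r, adjusted p = 0.585). C3, the central component, ranged from 3.91 to 6.25 in control kidney and from 4.49 to 7.19 in monuron kidney, and its difference of 0.40 (SE 0.60, adjusted p = 0.694) was smaller than its spread. The membrane regulators Cd55 (-0.24, adjusted p = 0.414) and Cd59 (0.01, adjusted p = 0.947) were not called. A second, dimmer Cd55 probe set went the other way by 0.80, at 3.72 in control and 4.51 in monuron kidney. Cd55 was called in none of the alternatives in kidney. Of the 47 measured members, 18 did not pass the filter in kidney: Masp1, Mbl2, Cfd, C6, C8a, C8b, C9, C4bpa, C4bpb, F12, Klkb1, F9, F10, Fgg, Serpind1, Plg, Plaur and A2m.

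**Figure D2:**
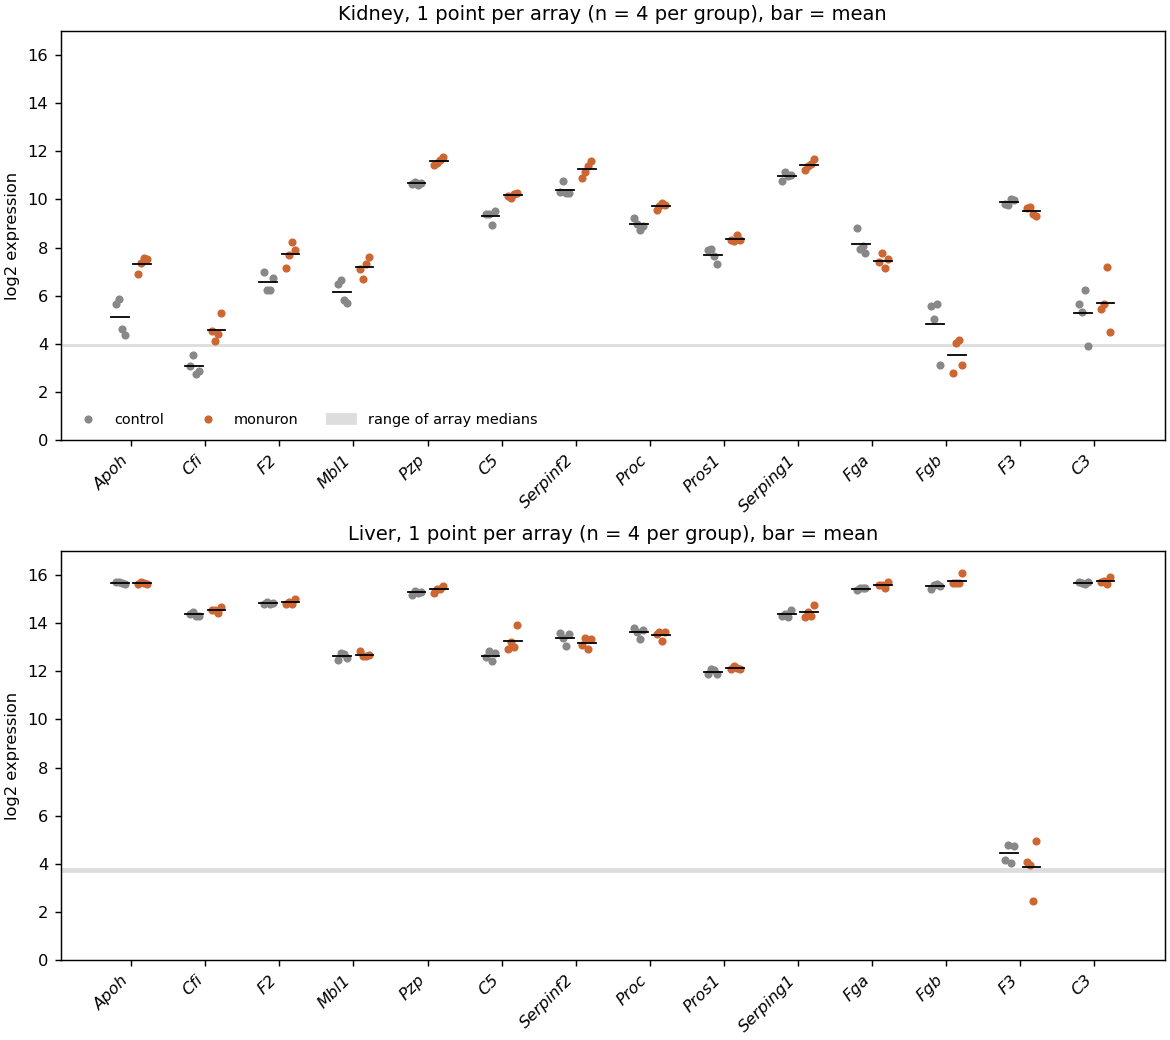
Log2 expression of the 10 members called in kidney and of Fga, Fgb, F3 and C3, with 1 point for each array (4 control in grey, 4 monuron in orange), a bar at the group mean and a grey band over the array medians, in kidney (top) and liver (bottom). In kidney the monuron points of Apoh (6.89 to 7.55) lie above the control points (4.34 to 5.88), while in liver both groups lie between 15.63 and 15.74.

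Single kidney arrays changed how many of these members were called. Without monuron kidney array 3 the count was 6 (Pzp, C5, Proc, Apoh, Cfi and Serpinf2) and without control kidney array 3 it was 5 (Pzp, C5, Proc, Apoh and Cfi), while the differences of the 10 kept their sign in each of these fits. Hepatocyte markers were read on the same arrays. Of 18 listed hepatocyte markers 17 were measured, 10 were tested and 0 were called by limma (3 at an unadjusted p below 0.05, all higher), 6 of the 10 being higher with monuron; their mean level ran from 5.81 to 6.43 in control kidney and from 6.20 to 7.09 in monuron kidney. The log2 of their summed linear level ran from 15.06 to 15.21 in control kidney and from 15.04 to 15.24 in monuron kidney, a sum led by Hpd and Hnf4a, which kidney itself expresses. Albumin (Alb) read 7.68, 7.50, 9.24 and 6.30 in control kidney and 8.93, 10.54, 11.84 and 9.13 in monuron kidney, a difference of 2.43 (SE 0.72, adjusted p = 0.0608). The 4 tested markers with lower means in monuron kidney were Cps1 (-1.17, adjusted p = 0.228), Fetub (-0.25, adjusted p = 0.509), Rbp4 (-0.18, adjusted p = 0.564) and Hpd (-0.13, adjusted p = 0.217). Monuron array 3 was highest for Alb and also for Ttr (7.96), Apoa2 (4.40), Ambp (5.20), Fgg and C3. Apoa1 (2.31 to 2.36) and Serpina6 (1.91 to 2.13) lay at background on all 8 arrays.

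Without monuron array 3 the difference was 2.13 for Apoh, 0.91 for Pzp, 0.86 for C5, 0.71 for Proc, 1.58 for Cfi, 0.80 for Serpinf2, 1.03 for F2, 0.98 for Mbl1, 0.59 for Pros1 and 0.47 for Serping1. Of these, F2 (adjusted p = 0.0514), Mbl1 (0.0947), Pros1 (0.0781) and Serping1 (0.0779) no longer passed. Without control array 3, Serpinf2 (adjusted p = 0.0530) was lost with those 4. Other single arrays each ended 1 or 2 calls: Mbl1 without monuron array 1 (adjusted p = 0.0690) or 4 (0.0674) or control array 4 (0.0733), Pros1 without monuron array 1 (0.0545), and Serping1 without control array 1 (0.0542) or 4 (0.0507). The part of the hepatocyte transcripts in the kidney result was not tested further.

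**Figure D3:**
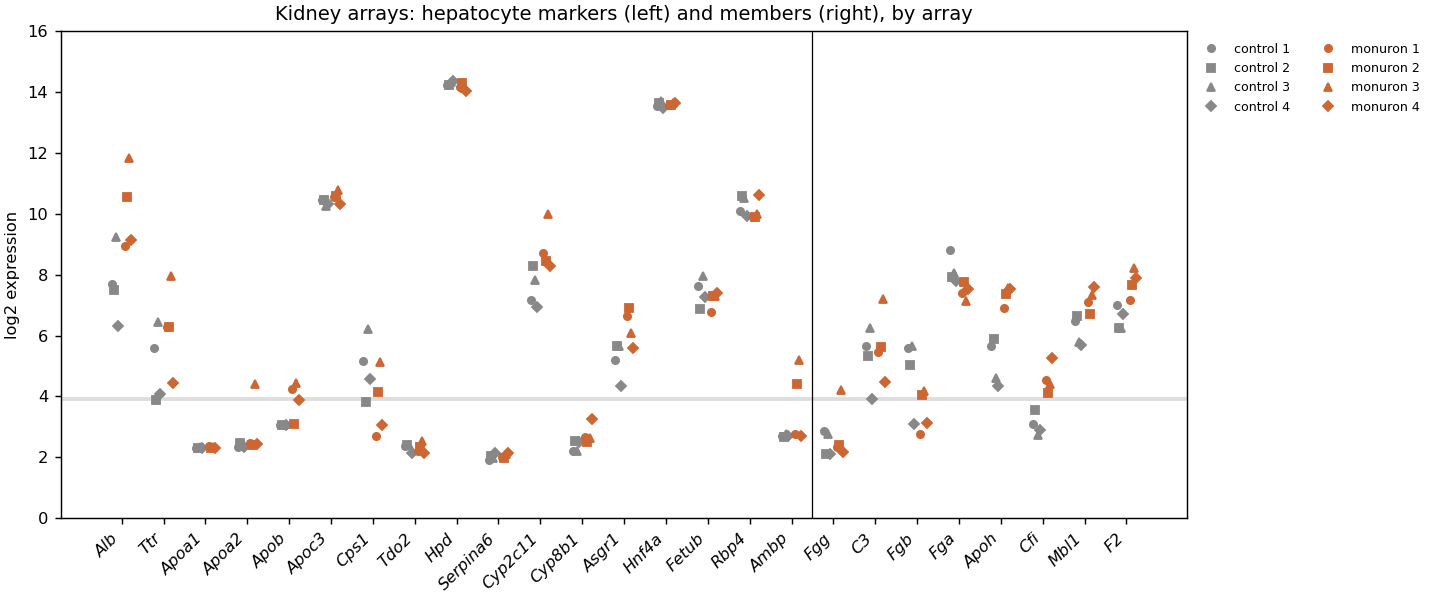
Log2 expression on each of the 8 kidney arrays for the 17 measured hepatocyte markers (left of the line) and 8 members (right of the line), with 1 symbol shape per array number, control in grey and monuron in orange, and a band over the array medians. Monuron array 3 (triangle) is the highest for Alb (11.84), Ttr and C3 (7.19), whereas Apoa1 lies near 2.3 on every array.

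In liver, where nearly all members were tested, C6 was the 1 member of 45 that was called, against 3.12% of all 9361 genes in either direction. C6 joins the membrane attack complex after C5b. It read 9.81, 9.65, 9.70 and 9.96 in control liver and 11.46, 11.13, 11.20 and 12.11 in monuron liver, a rise of 1.70 (SE 0.20, 3.24-fold, adjusted p = 0.0087) with more than 1 unit between the groups. It was called in every alternative and with each array left out. Other terminal components differed in the same direction without passing: C8a by 0.41 (SE 0.10, adjusted p = 0.0559), C5 by 0.61 (SE 0.20, adjusted p = 0.121), C9 by 0.25 (adjusted p = 0.171) and C8b by 0.17 (adjusted p = 0.345), while C8g differed by -0.01. C5 read 12.59, 12.85, 12.45 and 12.76 in control liver and 12.94, 13.21, 13.01 and 13.92 in monuron liver, without overlap and with array 4 far above the other monuron arrays.

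The coagulation genes differed little in liver. Factor IX (F9) read 14.35, 14.45, 14.33 and 14.35 against 14.59, 14.61, 14.50 and 14.56, a difference of 0.20 (SE 0.05, adjusted p = 0.0672) without overlap. Apoh differed by -0.03, F2 by 0.04, Proc by -0.11, Pros1 by 0.16, Serpinf2 by -0.20 and the fibrinogen chains by 0.08 to 0.23, with adjusted p from 0.17 to 0.753. Cd59 read 11.26, 11.95, 12.70 and 11.78 in control liver and 12.69, 12.38, 12.74 and 12.42 in monuron liver, a difference of 0.64 (SE 0.26, adjusted p = 0.176). Control array 3 was as high as the monuron arrays for Cd59, and without it the difference was 0.89 and called (adjusted p = 0.0329). The median of the 45 members was 0.10 (all genes, -0.07), 32 differences being positive, and Cd55 and Plaur were not tested. Macrophage markers, which liver holds in its Kupffer cells, were called by limma for 0 of 16 tested (7 at an unadjusted p below 0.05) and were all positive (median 0.32), beside C1q differences of 0.00 (C1qa), 0.22 (C1qb) and 0.27 (C1qc).

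**Figure D4:**
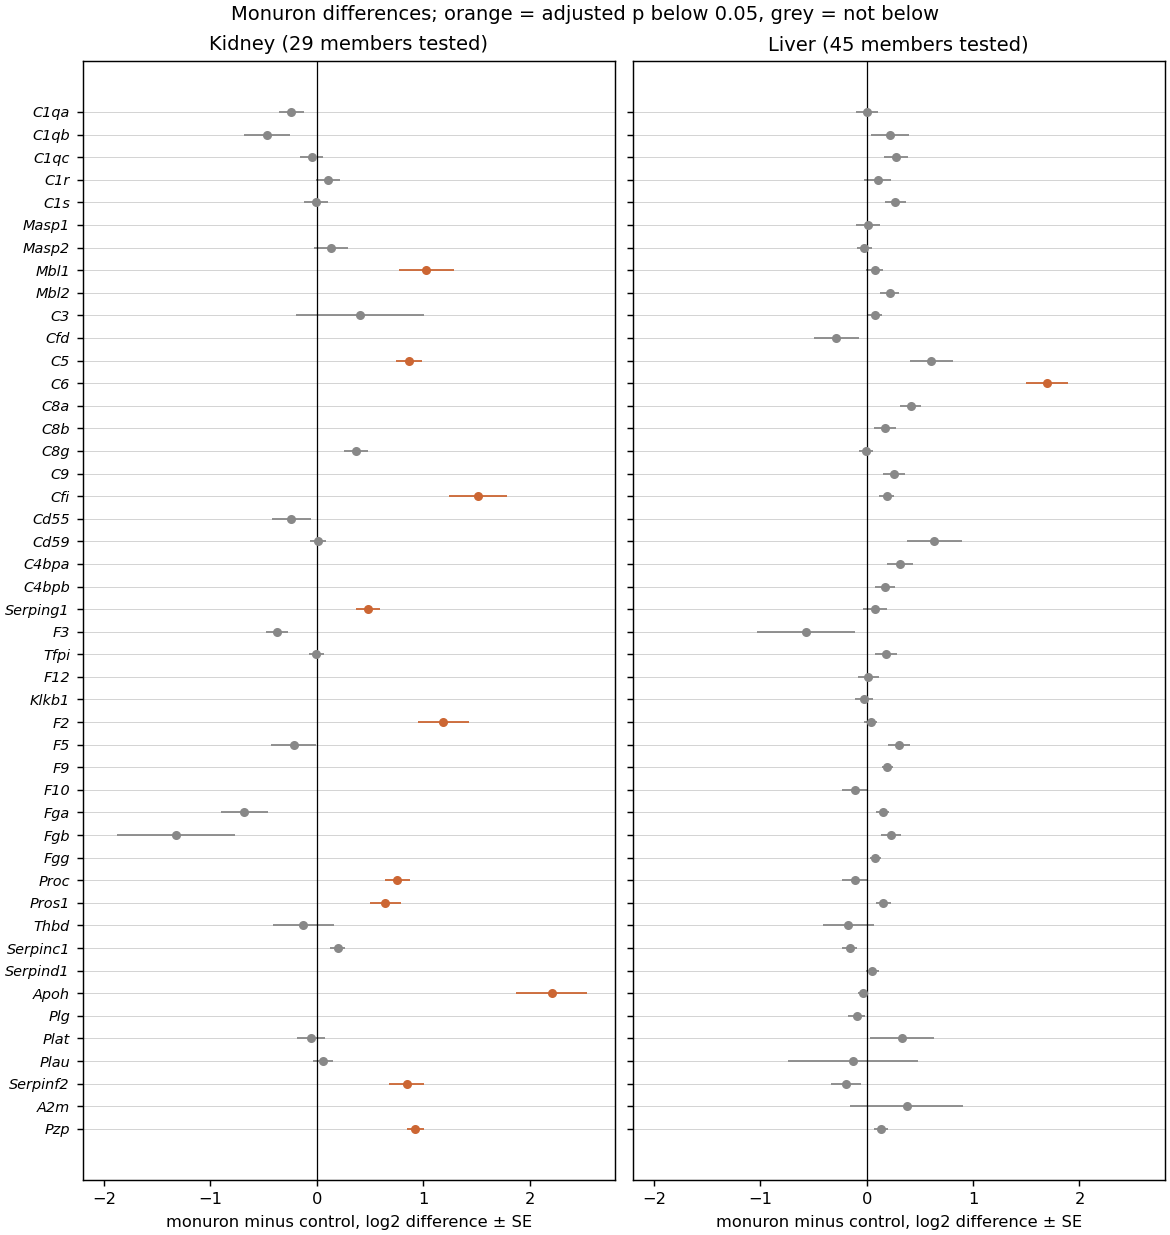
Monuron minus control difference (log2, point ± SE) of each tested member in kidney (left, 29 members) and liver (right, 45 members), with orange for an adjusted p below 0.05. In kidney 10 members are orange on the right of 0, led by Apoh at 2.21, and in liver C6 at 1.70 is the orange one.

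Whether the monuron difference itself differed between the organs was tested in the joint fit. It did for 7 of 46 members, against 2.68% of all 10114 genes. The difference was smaller in liver than in kidney for Apoh (-2.24, SE 0.36, adjusted p = 0.0033), Pzp (-0.79, SE 0.10, adjusted p = 0.00071), Proc (-0.87, SE 0.17, adjusted p = 0.014), Cfi (-1.33, SE 0.28, adjusted p = 0.017), Serpinf2 (-1.04, SE 0.23, adjusted p = 0.023) and F2 (-1.15, SE 0.26, adjusted p = 0.028). For C6 it was larger in liver (1.30, SE 0.27, adjusted p = 0.015), where kidney values of C6 lay between 1.77 and 2.69, below the array medians. Limited to the array median, Cfi was not called (-0.48, adjusted p = 0.310). F2 lost its call without monuron kidney array 3 or 4, control kidney array 2 or 3, monuron liver array 1 or 3 or control liver array 2, at differences from -0.99 to -1.13 and adjusted p from 0.0502 to 0.0657. Serpinf2 lost it without monuron kidney array 3, control kidney array 3 or 4 or control liver array 1, at adjusted p from 0.0506 to 0.0581. Mbl1 (-0.96, adjusted p = 0.0844), Serping1 (-0.40, adjusted p = 0.242), Pros1 (-0.49, adjusted p = 0.138) and C5 (-0.26, adjusted p = 0.665), called in kidney, were not shown to differ between the organs. In control liver Apoh lay at the 99.9 percentile of all probe sets, Pzp at the 99.8 and F2 at the 99.7, close to the top of the array scale, and the part of that ceiling in the smaller liver differences was not tested.

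In NRK-52E cells 12 of the 47 measured members passed the filter: C1r, C1s, Masp2, C8g, Cd55, Cd59, Serping1, F3, Tfpi, Pros1, Plat and Plaur. After 72 h, 8 of the 12 were called lower with monuron than with DMSO by limma and 0 higher (1 at an unadjusted p below 0.05), at a time when 61.6% of all 9042 genes were called and 30.9% were called lower. The median of the 12 was -0.40 (all genes, 0.01). Serping1 passed the filter on 3 arrays alone, all of DMSO cells (2 at 72 h and 1 at 24 h), so it entered the test through the group where it was high, and the count and median of the 12 include it. At 6 h limma called 0 of the 12 (6.31% of all genes), with 2 at an unadjusted p below 0.05. At 24 h Masp2 was the 1 member called (13.6% of all genes). The Masp2 probe set used in the cells read 7.29 in control liver, where the other Masp2 probe sets read 11.56 and 12.36. Those others lay below the array median on all cell arrays. The place of Masp2 among the 12 and its calls at 24 and 72 h thus depend on the probe set.

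Cd55, which dissociates the C3 convertases on the cell surface, read 10.03, 10.18 and 9.48 in DMSO cells at 72 h and 8.65, 8.26 and 7.80 in monuron cells. The groups did not overlap, and the difference was -1.66 (SE 0.21, 3.15-fold, adjusted p = 7.1e-06). A second Cd55 probe set, at 9.18 and 8.50, differed by -0.67. Cd59, the membrane inhibitor of pore formation, read 12.74, 13.03 and 12.64 against 12.10, 12.01 and 11.56, a difference of -0.91 (SE 0.12, 1.88-fold, adjusted p = 1.3e-05). The DMSO cells themselves moved with time for Cd55, from 6.54 ± 0.14 (SD, n = 3) at 6 h to 7.08 ± 0.11 at 24 h and 9.90 ± 0.37 at 72 h, while the monuron cells went from 6.74 ± 0.21 to 7.64 ± 0.24 and 8.24 ± 0.43.

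C1s, the protease that cleaves C4 and C2, read 8.75, 8.57 and 7.39 in DMSO cells and 6.69, 6.88 and 6.66 in monuron cells at 72 h, a difference of -1.49 (SE 0.27, 2.81-fold, adjusted p = 0.00019). C1r, which activates C1s, read 12.68, 12.52 and 11.80 against 11.84, 11.44 and 11.41, a difference of -0.77 (SE 0.17, adjusted p = 0.00094). In both genes DMSO array 3 lay below the other DMSO arrays, and for C1r it overlapped the monuron arrays. Serping1, their inhibitor, read 7.45, 6.76 and 2.83 against 3.60, 2.84 and 2.84, a difference of -2.58 (SE 0.74, adjusted p = 0.0067). All monuron arrays and DMSO array 3 were at background for Serping1, so that its fold is not well bounded, and the difference limited to the array median was -2.05 (adjusted p = 0.0030).

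The remaining calls at 72 h were small. Masp2 differed by -0.49 (SE 0.18, adjusted p = 0.028), Plat by -0.31 (SE 0.12, adjusted p = 0.032) and Tfpi by -0.27 (SE 0.10, adjusted p = 0.032). A second Tfpi probe set, at 4.66 in DMSO cells and 4.91 in monuron cells, differed by 0.25 in the opposite direction. Tfpi and Plat were lost with arrays centred on their medians (adjusted p = 0.147 and 0.120), Masp2 and Tfpi with the mean of all probe sets of a gene (0.768 and 0.967), and each of the 3 with several single arrays left out. Without monuron array 3 at 72 h the count was 5 (the falls of Masp2, Plat and Tfpi not being called), as it was for lower calls without DMSO array 2. Tissue factor (F3) read 12.38, 12.98 and 13.25 in DMSO cells and 13.16, 13.16 and 13.22 in monuron cells, a difference of 0.31 (SE 0.14, adjusted p = 0.0644); with the replicate number as a block it was called (adjusted p = 0.0419).

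DMSO array 3 at 72 h bore on these counts. Without it 10 members were called, the same 8 lower and F3 (0.50) and protein S (Pros1, 0.40) higher, and Cd55 differed by -1.86, C1s by -1.92 and Serping1 by -4.01. Without both 72 h arrays numbered 3 the count was also 10, with F3 at 0.48 and Pros1 at 0.44. At 24 h Masp2 read 8.13, 7.99 and 7.90 in DMSO cells and 7.24, 7.30 and 7.56 in monuron cells, and its difference of -0.64 (SE 0.18) was called (adjusted p = 0.030). That call was lost without the filter (adjusted p = 0.0542), with the mean of all probe sets (adjusted p = 0.164) and with monuron array 1 or 2 or DMSO array 1 or 2 at 24 h left out. Because all cell arrays shared 1 estimate of spread, leaving out 72 h arrays also moved the earlier counts: without DMSO array 3 the count at 24 h was 3 (Masp2, with C1s at 0.59 and Cd55 at 0.56 higher), and at 6 h it was 1 (C1s, 0.61, adjusted p = 0.0289). Without monuron array 3 at 72 h the count at 24 h was 2 (Masp2 and Cd55). C1s in monuron cells was thus above DMSO at 6 and 24 h and below it at 72 h, and only the difference at 72 h passed with all arrays.

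**Figure D5:**
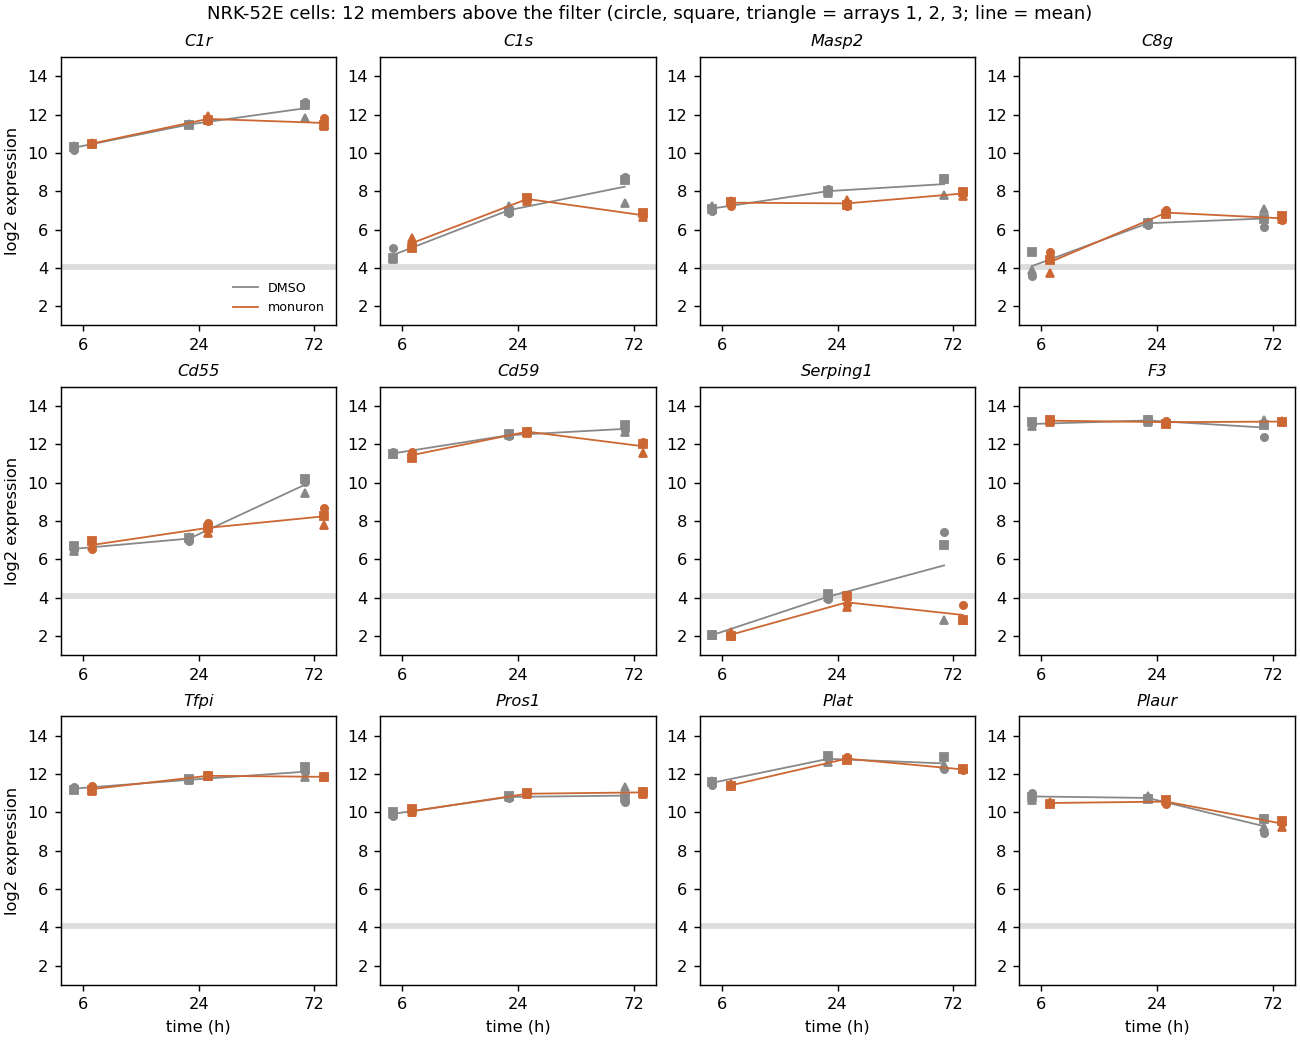
Log2 expression of the 12 members above the filter in NRK-52E cells at 6, 24 and 72 h (equally spaced), with DMSO in grey and monuron in orange, 1 symbol per array (3 per group), lines through the means and a grey band over the array medians. At 72 h the DMSO means of Cd55 (9.90) and C1s (8.24) lie above the monuron means (8.24 and 6.75), and DMSO array 3 (triangle) of Serping1 lies at background.

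Other genes of the same pathways came from lists and not from the 53. In kidney, where 10.2% of all genes were called, of 19 tested coagulation and fibrinolysis genes outside the 53, 3 rose and 1 fell. Von Willebrand factor (Vwf), the platelet tether of endothelium, read 7.70, 8.40, 7.68 and 7.84 in control kidney and 8.95, 8.92, 8.93 and 8.97 in monuron kidney. Its rise was 1.04 (SE 0.15, adjusted p = 0.0048), while the other 10 tested endothelial markers were not called. Of all 11 tested endothelial markers, 8 had a lower mean in monuron kidney, and the median difference was -0.18. Lman1, a cargo receptor for factors V and VIII, rose by 0.69 (adjusted p = 0.016), histidine-rich glycoprotein (Hrg) rose by 0.46 (adjusted p = 0.036), and S100a10, a plasminogen receptor subunit, fell by 0.50 (adjusted p = 0.014). Of 9 further complement genes limma called 0 in kidney (1 at an unadjusted p below 0.05), and of 7 acute-phase genes only angiotensinogen (Agt) was (1.70, adjusted p = 0.019). Of these 7, 4 had a lower mean with monuron, 3 of them at an unadjusted p below 0.05 in limma, and the median difference was -0.20. The tubule markers called were both endocytic receptors of the proximal tubule, Cubn (1.01, adjusted p = 0.00025) and Lrp2 (0.63, adjusted p = 0.0037), of 15 tested. In liver, where 3.12% of all genes were called, the endothelial protein C receptor (Procr) rose by 0.79 (adjusted p = 0.031), the 1 call among 26 coagulation genes, and limma called 0 of 13 complement and 0 of 19 acute-phase genes (3 of each at an unadjusted p below 0.05). In the cells at 72 h, 11 of 16 coagulation genes and all 4 complement genes of these lists were called, against 61.6% of all genes, so that the coagulation count was near the background and nothing is read from either; among them were Gas6, a vitamin K-dependent relative of protein S (-2.28, adjusted p = 1.9e-06), Lman1 (1.48, adjusted p = 4.6e-07) and C1qbp, a binding protein of C1q (0.87, adjusted p = 6.2e-07).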

How the data were processed

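RNA of 34 samples was measured on Affymetrix rat arrays, 1 array per sample. The table deposited by the authors holds 1 log2 value for each probe set and array, and, per the submitters' processing notes, GCRMA was used. The version of GCRMA is not given in the sources used here. Of 31099 probe sets, 57 were controls, 20826 carried 1 gene symbol, 436 several and 9780 none. Where a gene had several probe sets, the one of highest mean in the fit was taken. Differences were tested two-sided with limma 3.58.1 in R 4.3.3 (lmFit, eBayes with a trend), adjusted by the Benjamini-Hochberg method over all genes tested (threshold 0.05). All 18 cell arrays shared 1 fit, kidney and liver were fitted apart, and the 16 tissue arrays jointly for differences between organs. The code was tested on simulated data.

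The members, the lists and the rule for named genes (members called, with others of the same role; up to 4 genes per list by adjusted p) were chosen with earlier results of these data known. The labels call the replicates biological but do not say whether those of the cells are separate cultures. The p-values for the cells thus measure the spread between these samples only. At 6 h, deviations from the group mean correlated positively between same-numbered monuron and DMSO arrays (r = 0.491, 0.197 and 0.290). At 72 h they did so too (0.205, 0.167 and 0.317). However, numbers 2 and 3 at 6 h (0.301) and 1 and 2 at 72 h (0.275) correlated better with another number. Pairing by number is thus not settled there, and the main fits used none. Numbers did not pair the arrays at 24 h or, within an organ, monuron with control. Between organs, the same-numbered liver array correlated best for 4 monuron and 3 control kidney arrays, with r from 0.021 to 0.158. The joint fit treated these arrays as independent. Precision is limited by the number of arrays. Alternatives covered the filter, centring, quantile normalization, probe set averaging, dim values, the trend, a block and single arrays left out.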

Additional observations from a re-analysis of the deposited data

Results flagged for a closer look

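Of 146 groups of 4 tissue arrays looked at, 12 held 1 array far from the other 3 by Dixon's test, and chance alone gives about 1 in 20 such groups. In monuron kidney these were array 2 for C1s (11.2, the others between 10.93 and 10.95) and array 3 for Pros1 (8.50). In control kidney they were array 2 for C1qc (6.52) and array 2 for Serpinf2 (10.8). In monuron liver they were array 4 for C1qc (10.5), C4bpa (15.1), Fgb (16.1) and Fgg (15.5), array 1 for Mbl1 (12.8) and array 2 for Plau (3.71). In control liver they were array 4 for Masp2 (12.2) and array 1 for Fga (15.4). Array 4 thus accounts for 4 of the 6 in monuron liver.

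The monuron difference in liver minus that in kidney passed the limma test for 7 members: C6 at 1.30, Pzp at -0.79, Proc at -0.87, Serpinf2 at -1.04, F2 at -1.15, Cfi at -1.33 and Apoh at -2.24.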

How the results depend on the processing

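Among the recomputed values of called members under the alternatives, 1589 kept their direction and their side of the threshold (most of them between the control organs), 58 kept the direction only and 0 changed sign. With 1 array left out at a time, the number of members called ran from 0 to 1 in the cells at 6 h, 0 to 3 at 24 h, 5 to 10 at 72 h, 5 to 11 in kidney, 1 to 2 in liver, 5 to 9 for the organ difference of the treatment effect and 45 to 46 between the control organs. At 24 h the count was 0 without the filter and 0 with the mean of all probe sets, against 1. At 72 h it was 17 without the filter, where most added calls were differences under 0.11 at background. Without both 72 h arrays numbered 3, an alternative chosen after seeing the data for 6 and 24 h, it was 1 at 6 h and 4 at 24 h. With the replicate number as a block, the count was 0 at 6 h, 2 at 24 h, 9 at 72 h, 6 in kidney, 1 in liver and 5 for the organ difference; in kidney Mbl1, Cfi, F2 and Pros1 were lost, although the numbers did not pair the kidney arrays. A block shared by both organs gave 7. The cause of these shifts was not tested. Groups of 3 or 4 arrays and background signal limit small differences and dim genes such as Cfi, Serping1 in the cells and Fgb in kidney.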
